A study of Rattus norvegicus with 4 samples.

Results

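The actins and the mechanosensing proteins of the sarcomere were read in the soleus of the rat, a calf muscle rich in slow fibres, as all probe sets annotated to Acta1, Acta2, Actc1, Actn2, Csrp3, Fhl1, Fhl2 or Des. On these Affymetrix arrays a probe set is the group of short oligonucleotides that reads 1 transcript, or several transcripts of like sequence. The rule found 13 of 8740 probe sets: 9 are annotated to a single gene of the list and 4 to both Acta2 and Actc1. Of the 8 listed genes 7 had at least 1 probe set of their own, out of 4736 genes with one, and Fhl1, which no probe set names in the annotation used here, was not analysed here. The samples were 4 arrays in 2 groups. The unloaded group (2 pools) came from female rats whose hindlimbs were kept off the ground for 10 h a day over 11 days, and the control group (2 pools) from female rats that stood and walked in their cages. The labels name no strain, age, genotype or drug for either group. Each array carried RNA mixed from 4 to 5 rats, so the spread between pools is not the spread between animals. The labels do not say whether both pools of a group held different rats, and p-values measure only the spread between these arrays, whose number limits the precision.

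Force in muscle is made where myosin pulls on thin filaments of actin. Acta1 encodes the actin of adult skeletal muscle, Actc1 the actin of the heart and of developing skeletal muscle, and Acta2 the actin of smooth muscle in vessel walls. The thin filaments of neighbouring sarcomeres are anchored in the Z-disc by alpha-actinin, of which Actn2 is the main form in heart and slow fibres. Csrp3 (muscle LIM protein), Fhl1 and Fhl2 carry LIM domains, which bind other proteins, and sit at the Z-disc or along the sarcomere, where they are linked to the sensing of stretch. Des encodes desmin, the intermediate filament that ties Z-discs to each other and to the cell membrane. Many of these genes are known targets of serum response factor (SRF), which binds a DNA element called the CArG box and whose coactivators are held back by free actin monomers.

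The annotated start regions of the genes whose values differed most, and of Acta1 beside them, are printed to show where CArG boxes lie. The sequences run 5′ to 3′ on the gene's strand, 250 bases before to 50 bases after an annotated transcript start, from RefSeq on GRCr8. Capitals mark each CArG box, read as a run of 6 A or T bases between CC and GG, a pattern that is the same on both strands.
Actc1, chr3:121271778-121272077, minus strand: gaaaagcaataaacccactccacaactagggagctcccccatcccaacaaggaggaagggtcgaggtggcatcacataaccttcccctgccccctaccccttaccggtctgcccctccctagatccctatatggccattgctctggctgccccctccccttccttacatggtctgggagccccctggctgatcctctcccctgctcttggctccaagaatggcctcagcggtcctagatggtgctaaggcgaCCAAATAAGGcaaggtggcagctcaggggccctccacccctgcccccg
Fhl2, first start, chr9:52954491-52954790, minus strand: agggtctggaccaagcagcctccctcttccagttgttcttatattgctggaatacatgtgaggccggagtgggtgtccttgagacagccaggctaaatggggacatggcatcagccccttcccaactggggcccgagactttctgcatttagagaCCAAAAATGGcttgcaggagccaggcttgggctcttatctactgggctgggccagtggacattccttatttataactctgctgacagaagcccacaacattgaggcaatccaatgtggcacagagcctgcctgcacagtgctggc
Fhl2, second start, chr9:52923277-52923576, minus strand: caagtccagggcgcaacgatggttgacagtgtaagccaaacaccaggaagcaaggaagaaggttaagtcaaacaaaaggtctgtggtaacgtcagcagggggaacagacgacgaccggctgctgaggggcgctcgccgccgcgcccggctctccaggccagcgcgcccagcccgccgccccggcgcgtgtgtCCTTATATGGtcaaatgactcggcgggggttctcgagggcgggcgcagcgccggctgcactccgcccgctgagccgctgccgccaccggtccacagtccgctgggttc
Acta2, chr1:241172454-241172753, minus strand: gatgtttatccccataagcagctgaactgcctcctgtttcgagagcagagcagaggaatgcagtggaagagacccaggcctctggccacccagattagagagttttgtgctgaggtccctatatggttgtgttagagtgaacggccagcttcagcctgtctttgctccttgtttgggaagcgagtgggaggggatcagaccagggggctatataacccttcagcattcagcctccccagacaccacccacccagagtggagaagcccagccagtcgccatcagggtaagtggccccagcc
Acta1, chr19:68784145-68784444, minus strand: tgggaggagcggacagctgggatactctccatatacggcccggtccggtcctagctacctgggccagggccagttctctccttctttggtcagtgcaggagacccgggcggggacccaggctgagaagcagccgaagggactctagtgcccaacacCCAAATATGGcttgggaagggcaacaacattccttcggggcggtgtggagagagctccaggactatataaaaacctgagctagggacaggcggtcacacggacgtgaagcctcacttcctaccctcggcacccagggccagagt

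A CArG box stood in 1.64% of all 33469 RefSeq start regions of this length. Among the listed genes, 7 had at least 1 of 9 start regions in the table, and 4 genes (Acta1, Actc1, Fhl1 and Fhl2) had the box in at least 1 of theirs. In Acta1 the box began 94 bases before the annotated start, and in Actc1 at base 3 after the annotated start. In Fhl2 it began 95 and 58 bases before its annotated starts. Whether these annotated starts are the ones used in soleus was not tested. Acta2, Actn2 and Des had no such box in these windows. A box with 1 G or C in its core, found in 8.10% of all start regions, occurred in Acta2 at 134 and 84 bases before the start, in Acta1 at 222 and 171, and in Actc1 at 126, 89 and 38. Other elements of muscle promoters were also searched on both strands. The MEF2 box, present in 3.29% of start regions, lay at the first start of Fhl2, 30 bases upstream. The MCAT element CATTCC, present in 14.2%, lay in Acta1, Acta2 and at the first start of Fhl2, beside and not within the MEF2 box. These matches describe letters in the windows and say nothing of binding. Csrp3 is named only.

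In the unloaded soleus the cardiac actin transcript Actc1 fell 2.05-fold, as read by a probe set annotated to no other gene. The LIM-protein transcript Fhl2 fell 1.89-fold, and 1 of 3 probe sets of the smooth muscle actin Acta2 rose. Transcripts of the skeletal actin Acta1, the alpha-actinin Actn2, Csrp3 and desmin did not pass the test. Of 12 member probe sets tested, 1 was higher and 5 were lower in unloaded pools at an adjusted p under 0.05. Among all 5257 tested probe sets 2.59% were higher and 2.66% lower, 5.25% in all. The 12 probe sets are not independent, since 4 of the 6 that passed are annotated to Actc1, alone or with Acta2. Counted by the brightest probe set of a gene, 2 of 7 genes passed, both lower. The median log2 fold change was -0.0038 over the 12 members and 0.0013 over all tested probe sets. Each adjusted p comes from limma, adjusted after Benjamini and Hochberg over all tested probe sets. Log2 fold changes are unloaded minus control on the log2(signal + 9) scale, and SE is their standard error. In whole muscle, fewer cells of a type and less RNA per cell cannot be told apart. The count of 6 depends on both pools of each group. It was 4 without unloaded pool 1, 2 without unloaded pool 2, 0 without control pool 1 and 1 without control pool 2.

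**Figure D1:**
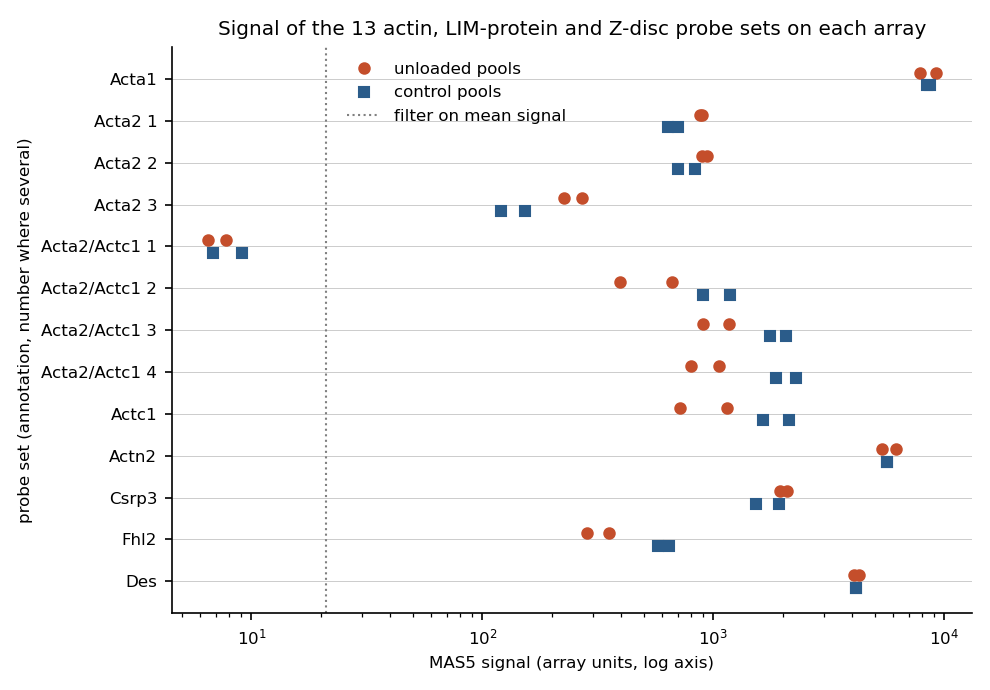
MAS5 signal (log axis) of the 13 member probe sets on each of the 4 arrays, unloaded pools as circles above control pools as squares. Numbers tell apart probe sets with the same annotation, and the dotted line is the mean signal of 21.0 above which probe sets were tested. Both unloaded pools lie below both control pools for Fhl2, Actc1 and the 3 brighter probe sets shared by Acta2 and Actc1.

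The probe set annotated to Actc1 alone (rc_AA866452_s_at) read 1141 and 716.0 signal units in the unloaded pools, against 2123 and 1632 in the control pools. Whether it also reads other actins was not tested. Both unloaded pools lay below both control pools, and the closest pair of pools was 1.43-fold apart. The mean was 929 ± 301 in unloaded and 1878 ± 348 in control pools (SD, n = 2 each), 2.05-fold lower after unloading, or -1.03 on the log2 scale (SE 0.21, adjusted p = 0.0324). Of 10 other settings 8 kept the call. It was lost without a filter on dim probe sets (adjusted p = 0.142) and without a mean-variance trend (0.108). The estimate was -0.70 (adjusted p = 0.137) without unloaded pool 2, -0.85 (0.199) without control pool 1 and -1.22 (0.101) without control pool 2, so it kept its sign and lost the threshold in these 3 cases. Without unloaded pool 1 it was -1.37 and passed.

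The tested probe sets shared by Acta2 and Actc1 gave fold changes close to that of the probe set annotated to Actc1 alone. Shared probe set 4 (X80130cds_i_at) read 1053 and 797 in unloaded pools, against 2281 and 1864 in control pools, which put it 2.24-fold lower, or -1.16 on the log2 scale (SE 0.15, adjusted p = 0.00525). It stayed past the threshold with any array left out but control pool 1 (-1.02, adjusted p = 0.0681). Shared probe set 3 (X80130cds_f_at) read 1172 and 902 in unloaded pools, against 2062 and 1766 in control pools (log2 fold change -0.89, SE 0.14, adjusted p = 0.0120). Without unloaded pool 2 it gave -0.70 (adjusted p = 0.0737), without control pool 1 -0.78 (0.115) and without control pool 2 -1.00 (0.0680), none past the threshold. Of 10 other settings, 9 kept the call of shared probe set 4 and 8 that of shared probe set 3. The suffix f marks a probe set that reads a family of like sequences.

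Shared probe set 2 (rc_AI104567_g_at) read 661 and 394 in unloaded pools, against 1186 and 898 in control pools (log2 fold change -1.00, SE 0.23, adjusted p = 0.0486). Only 4 of 10 other settings kept this call. Among those that lost it were quantile normalization (adjusted p = 0.0707) and robust estimation of the variance prior (0.0577). This call lay just under the threshold and was lost without unloaded pool 2 (-0.64, adjusted p = 0.187), without control pool 1 (-0.80, 0.234) and without control pool 2 (-1.20, 0.128). Shared probe set 1 (rc_AI104567_at) was too dim to test, at 7.80 and 6.50 in unloaded pools, against 9.10 and 6.80 in control pools. The tested probe sets that name Actc1 thus spanned log2 fold changes of -1.16 to -0.89. In each of them unloaded pool 1 was brighter than unloaded pool 2, by 1.30 to 1.68-fold, and control pool 1 brighter than control pool 2, by 1.17 to 1.32-fold, so they rank the 4 arrays alike. They were read on the same arrays and can share oligonucleotides, so they are not separate measurements of the change.

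The 3 probe sets annotated to Acta2 and no other gene were brighter in unloaded pools, and 1 passed. Acta2 probe set 3 (X06801cds_i_at) read 226 and 270.3 in unloaded pools, against 121 and 153 in control pools. The closest pair of pools was 1.47-fold apart, and the signal rose 1.77-fold (log2 fold change 0.82, SE 0.15, adjusted p = 0.0221). Of 10 other settings 8 kept this call. It was lost without a filter on dim probe sets (adjusted p = 0.0945) and without a mean-variance trend (0.0736). This call was lost with any array left out: 0.95 (adjusted p = 0.106) without unloaded pool 1, 0.69 (0.172) without unloaded pool 2, 0.66 (0.122) without control pool 1 and 0.98 (0.0597) without control pool 2. Acta2 probe set 1 (rc_AA900769_s_at) read 875 and 893 in unloaded pools, against 639 and 701 in control pools, and did not pass (log2 fold change 0.40, SE 0.09, adjusted p = 0.0554). It passed with a filter at the 60th percentile of mean signal (0.0323) and with robust estimation of the variance prior (0.0490). Acta2 probe set 2 (X06801cds_f_at), the brightest of the gene, has the suffix f and may read other actins too. It read 889 and 934 in unloaded pools, against 699.5 and 833 in control pools and did not pass (0.25, SE 0.11, adjusted p = 0.242). All 3 had both unloaded pools above both control pools, with the largest estimate on the dimmest probe set.

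Because Acta2 belongs to smooth muscle, markers of that cell type were read beside it. Of 10 listed markers 6 had a tested probe set, none at 0 on any array, and none passed in limma (2 had an unadjusted p under 0.05). Their summed signal was 779 to 838 in unloaded pools, against 591 to 659 in control pools, and their median log2 fold change was 0.29, against 0.01 over all 3152 genes with a tested probe set. Myl9, a smooth muscle myosin light chain, read 368 and 389 in unloaded pools, against 294 and 294.5 in control pools (0.35, SE 0.10, adjusted p = 0.0924). Myh11, the smooth muscle myosin heavy chain, gave 0.56 (SE 0.21, adjusted p = 0.179), Tagln, an actin-binding protein of smooth muscle, 0.22 (SE 0.16, adjusted p = 0.503) and the enteric actin Actg2, described below, 1.00 (SE 0.55, adjusted p = 0.346). Pdgfrb, a receptor of mural cells, went the other way (-0.23, SE 0.17, adjusted p = 0.513), and Cnn1, calponin, gave 0.22 (SE 0.19, adjusted p = 0.579). Dimmer probe sets gave 0.22 for Myl9 (adjusted p = 0.482), -0.01 for Myh11 (0.990) and 0.50 for Tagln (0.0601). With 1 array left out the estimate was 0.32 to 0.39 for Myl9, 0.27 to 0.84 for Myh11 and 0.00 to 0.43 for Tagln, none past the threshold. The part of these cells in the Acta2 values was not tested.

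**Figure D2:**
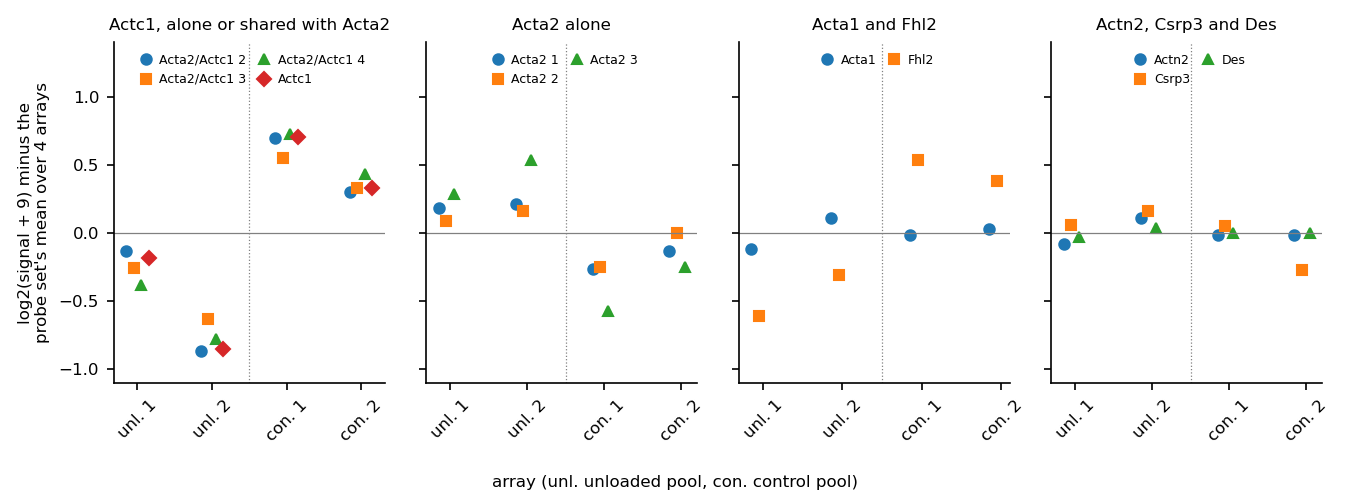
log2(signal + 9) of the 12 tested member probe sets on each array, minus each probe set's mean over the 4 arrays, with unloaded pools left of control pools. The 4 probe sets that name Actc1 lie low in unloaded and high in control pools, those annotated to Acta2 alone the other way, and those of Acta1, Actn2 and Des near 0.

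Acta1, the thin filament actin of adult fibres, read 7828 and 9160 in unloaded pools, against 8413 and 8664 in control pools, with the control values inside the unloaded range. The means were 8494 ± 942 and 8538 ± 177 (SD, n = 2 each), and the log2 fold change was -0.01 (SE 0.10, adjusted p = 0.968). Its 95% confidence interval ran from -0.24 to 0.22, so a change of more than 1.18-fold in either direction lay outside it. The probe set was the fifth brightest of 8740, and whether so bright a probe set can register a change was not tested. Measured within each array against Acta1, and set to a mean of 0 in control pools, Actc1 stood at -0.58 and -1.47 log2 in unloaded pools, against 0.21 and -0.21 in control pools. Fhl2 on the same scale stood at -0.94 and -0.87 in unloaded pools, against 0.10 and -0.10 in control pools. An exact permutation test of 2 pools against 2 gives a two-sided p of 0.333 for each of 5 such pairs computed, also after adjustment, the smallest it can give.

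Fhl2, a LIM-domain protein that binds titin and transcriptional regulators, read 284 and 352 in unloaded pools, against 639 and 573 in control pools. The groups did not overlap, and the closest pair of pools was 1.63-fold apart. The mean was 318 ± 47.9 in unloaded and 606 ± 46.7 in control pools (SD, n = 2 each), 1.89-fold lower after unloading, or -0.92 on the log2 scale (SE 0.13, adjusted p = 0.00720). The 95% confidence interval ran from -1.21 to -0.62. With 1 array left out the estimate lay between -1.07 and -0.77. It passed without unloaded pool 2 and missed the threshold without unloaded pool 1 (adjusted p = 0.0733), control pool 1 (0.0788) or control pool 2 (0.0589). All 10 other settings kept the call. Fhl2 has 1 probe set on this array, so no second reading was at hand.

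The other LIM and Z-disc members did not pass. Csrp3, the muscle LIM protein, read 1941 and 2082 in unloaded pools, against 1926 and 1534.5 in control pools, and the lower unloaded pool lay 1.01-fold above the higher control pool (log2 fold change 0.22, SE 0.12, adjusted p = 0.331). Actn2 read 5385 and 6142 in unloaded pools, against 5646 and 5655 in control pools, so the groups overlapped (0.03, SE 0.09, adjusted p = 0.920). Its 95% confidence interval, -0.19 to 0.24, left out changes above 1.18-fold. Des read 4067 and 4266 in unloaded pools, against 4150 and 4157 in control pools (0.00, SE 0.08, adjusted p = 0.985), with an interval of -0.19 to 0.20. In all, 9 of the 12 tested probe sets had groups that did not overlap (4 higher, 5 lower), against 50.8% of all tested probe sets.

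**Figure D3:**
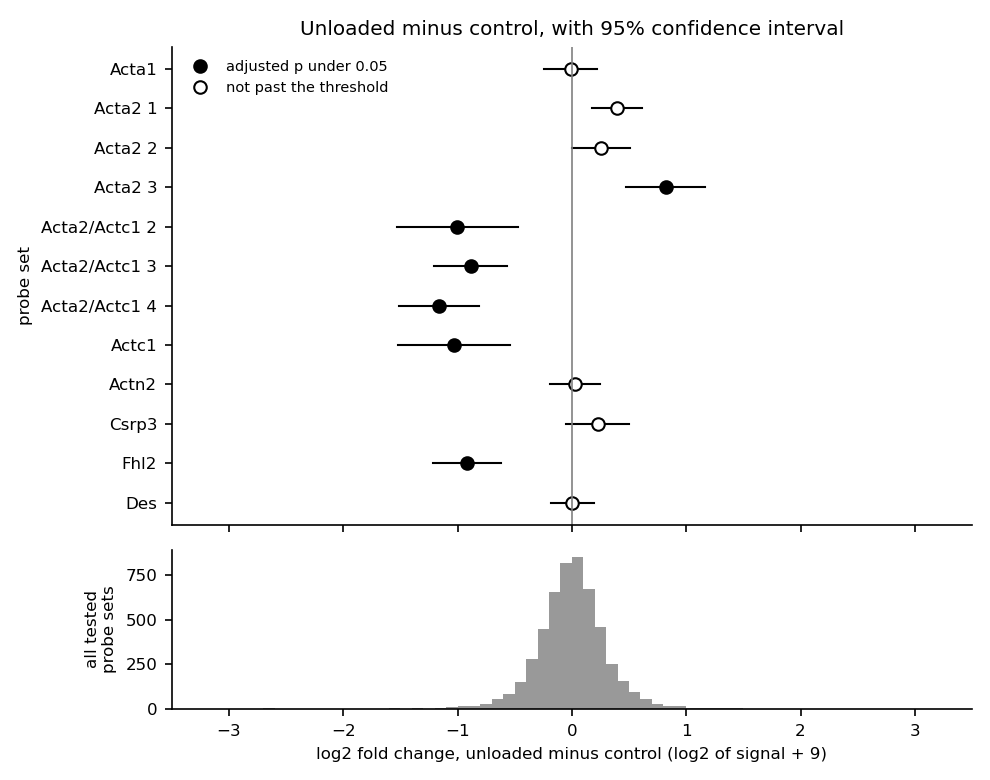
log2 fold change, unloaded minus control, of the 12 tested member probe sets with 95% confidence intervals from limma (upper panel, filled where the adjusted p was under 0.05), above a histogram of the same quantity for all 5257 tested probe sets. The 5 lower probe sets lie between -1.16 and -0.89, and the higher one at 0.82.

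The probe sets with the profile most like that of a member were found by the Euclidean distance between centred log2 signals over the 4 arrays, among single-gene probe sets. Nearest to Fhl2 were Chrnd, a subunit of the acetylcholine receptor (distance 0.045, log2 fold change -0.89), Acadsb (0.074 and -0.97) and the insulin receptor adaptor Irs1 (0.076 and -0.92), all past the threshold, and not past it with any array left out. Nearest to Actc1 were the nuclear receptor Nr4a2 (0.187 and -0.96, adjusted p = 0.0459), Gucy2g (0.246 and -0.89, adjusted p = 0.0514) and Pttg1 (0.259 and -0.79, adjusted p = 0.112). Nearest to Acta1 were Ywhae (0.011), Uqcrfs1 (0.011) and the Z-disc linker Pdlim1 (0.012), with log2 fold changes of -0.01 to -0.00. With 4 arrays such closeness is a description of these pools only.

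The actins of non-muscle cells and of gut smooth muscle did not pass in limma, with 1 of 3 at an unadjusted p under 0.05. Actg1, the cytoplasmic gamma actin, read 1416 and 1680 in unloaded pools, against 1992 and 2062 in control pools, with no overlap (log2 fold change -0.39, SE 0.10, adjusted p = 0.0776). This probe set has the suffix f and may read other actins too. Actb, the cytoplasmic beta actin, read 1830 and 1792.5 in unloaded pools, against 1920 and 2076 in control pools (-0.14, SE 0.09, adjusted p = 0.418). A pair of probe sets annotated to both genes and to Actg1l1 gave 0.14 and -0.17. Actg2 read 61.1 and 45.4 in unloaded pools, against 53.3 and 6.20 in control pools, so its value rests on 1 dim control pool. Without control pool 1 it gave 2.02 (adjusted p = 0.0275), and without control pool 2 -0.01 (adjusted p = 0.985).

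Other genes of the Z-disc and of stretch sensing moved in both directions. In this list and those below, chosen with earlier results of these data known, a gene is counted by its brightest tested probe set. Of 18 tested genes of 36 listed, 2 rose, 1 fell and 15 did not pass, with a median log2 fold change of -0.01 and 8 at an unadjusted p under 0.05. Over all 3152 genes counted this way 80 rose and 68 fell, with 627 at an unadjusted p under 0.05. Mybph, a myosin-binding protein of the thick filament, read 268 and 288 in unloaded pools, against 182 and 160.3 in control pools (0.67, SE 0.12, adjusted p = 0.0174), and 1.03 on its other probe set. Pdlim3, which binds alpha-actinin at the Z-disc, read 2851 and 2982 in unloaded pools, against 2322 and 2013 in control pools (0.43, SE 0.10, adjusted p = 0.0486). Trim63, a ubiquitin ligase of the sarcomere, read 529 and 579.5 in unloaded pools, against 911 and 769 in control pools (-0.59, SE 0.11, adjusted p = 0.0262), on a probe set with the suffix f. Its other, dimmer probe set gave -0.76 (SE 0.16, adjusted p = 0.0384). With any array left out, Mybph, Pdlim3 and Trim63, each by its brightest probe set, kept their direction and did not pass. Csrp2, a smooth muscle relative of Csrp3, gave 0.54 (SE 0.13, adjusted p = 0.0584).

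Of 12 tested genes of thin filament length and actin turnover, 1 fell and 11 did not pass, with a median of 0.06. The gene that fell was Cap2, which frees actin monomers, at 655 and 627 in unloaded pools, against 1019 and 847 in control pools (-0.53, SE 0.11, adjusted p = 0.0380), and it did not pass with any array left out. The pointed-end cap Tmod1 gave 0.44 (SE 0.11, adjusted p = 0.0583), nebulin (Neb), which runs along the thin filament, 0.29 (SE 0.09, adjusted p = 0.110) and profilin (Pfn1) 0.20 (SE 0.10, adjusted p = 0.302). None of 6 tested genes of other intermediate filaments and linkers passed in limma (median -0.05, 3 with an unadjusted p under 0.05). The cytolinker Plec gave 0.27, the nuclear lamin Lmna -0.27, Ank3 0.28 and the intermediate filament Nes -0.32. Dimmer probe sets gave 0.23 for Plec, and -0.27, 0.06, -0.07 and 0.15 for Ank3, none past the threshold.

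**Figure D4:**
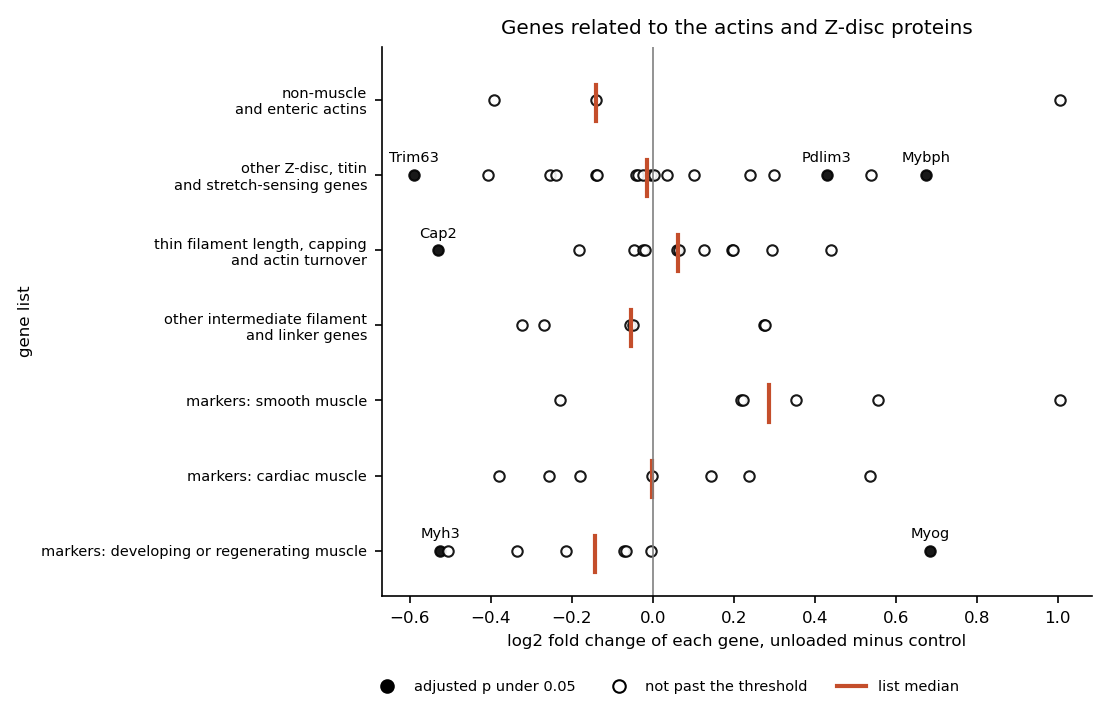
log2 fold change, unloaded minus control, of each tested gene in 7 related or marker lists, filled and named where the adjusted p was under 0.05, with list medians as vertical bars. Medians lie between -0.14 and 0.06 in 6 of the 7 lists drawn, and at 0.29 for smooth muscle markers.

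Since Actc1 is the actin of the heart and of immature fibres, markers of both were read beside it. Of 8 cardiac markers 7 were tested and none passed in limma (median -0.00, 1 with an unadjusted p under 0.05). Their summed signal was 6596 to 6862 in unloaded pools, against 5382 to 6069 in control pools. Nearly all of it came from a Myh6 probe set of the kind that can read several myosins. That probe set gave 0.24 (SE 0.09, adjusted p = 0.194). Dimmer probe sets of Myh6 gave -0.03 (adjusted p = 0.892) and -0.28 (0.231). Tnnt2, the cardiac troponin T, read 113 and 192 in unloaded pools, against 118.5 and 82.7 in control pools, with overlap (0.54, SE 0.25, adjusted p = 0.271). The other cardiac markers read at most 44.1 on any array, with the atrial peptide Nppa at 23.0 and 30.7 in unloaded pools, against 36.1 and 38.6 in control pools, and Nppb at most 7.20. Of 13 markers of developing or regenerating muscle 9 were on the array and 8 tested. The embryonic myosin Myh3 fell (-0.52, SE 0.09, adjusted p = 0.0137), the myogenic factor Myog rose (0.68, SE 0.11, adjusted p = 0.0143) and 6 did not pass (median -0.14). In limma 4 genes of this list had an unadjusted p under 0.05. Besides Myh3 and Myog these were Ncam1 at -0.50 (adjusted p = 0.118) and H19 at -0.33 (0.160). Dimmer probe sets gave 0.15 for Ncam1 and -0.37 for H19. Other probe sets of Myh3 gave -0.74, -0.92 and -0.96, all past the threshold, and -0.31, which was not. With an array left out, the first Myh3 value never passed, and Myog passed without control pool 1 alone, at 0.78 (adjusted p = 0.0485). The summed signal of this list was 4365 to 4689 in unloaded pools, against 5505 to 5765 in control pools, and none was at 0. Most of this sum came from H19 and Myh3. H19 read 2076 and 1724 in unloaded pools, against 2546 and 2240 in control pools. Myh3 read 1528 and 1455 in unloaded pools, against 2174 and 2124 in control pools. The part of such fibres in the Actc1 values was not tested.

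Skeletal muscle fibre markers summed to 35581 and 39389 in unloaded pools, against 37200 and 36657 in control pools, and all 7 on the array were tested. Among them the fast-fibre genes Tnni2, Tnnt3 and Myh2 rose, by 1.04, 0.68 and 0.63 on the log2 scale. The 4 others did not pass, and the list median was -0.01. Myh7 gave -0.13 (on a probe set with the suffix f), Ckm -0.10, Myl3 -0.02 and Tnni1 -0.01. With 1 array left out, Tnni2 kept the call in 2 of 4 fits and Tnnt3 and Myh2 in 1 each. Summed fibroblast markers were 10642 and 8590 in unloaded pools, against 7866 and 8944 in control pools, and none of 7 passed in limma by its brightest probe set (median 0.16, 2 with an unadjusted p under 0.05). Dcn, the proteoglycan decorin, gave 0.41 on that probe set (adjusted p = 0.0830) and 0.31, 0.21 and 0.87 on dimmer ones. The last passed (adjusted p = 0.00540), at 739 and 668.5 in unloaded pools, against 350.3 and 411 in control pools. No marker of leukocytes (3 tested), endothelium (5), adipocytes (3) or tendon (2) passed, and 2 adipocyte markers alone had an unadjusted p under 0.05. Summed tendon markers stood apart in 1 array, at 561 and 267 in unloaded pools, against 317 and 306 in control pools, and so did Fmod, fibromodulin, at 446 and 209 in unloaded pools, against 212.5 and 192 in control pools. The part of connective tissue in the members' values was not tested. The ratio of 3′ to 5′ control probe sets, a sign of RNA integrity, was 1.11 to 1.14 in unloaded and 1.15 to 1.20 in control pools for beta-actin, and 0.96 to 0.97 in unloaded and 0.95 to 1.01 in control pools for Gapdh. Log2 signals correlated across probe sets at 0.988 between unloaded pools, 0.987 between control pools and 0.973 to 0.974 between groups.

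**Figure D5:**
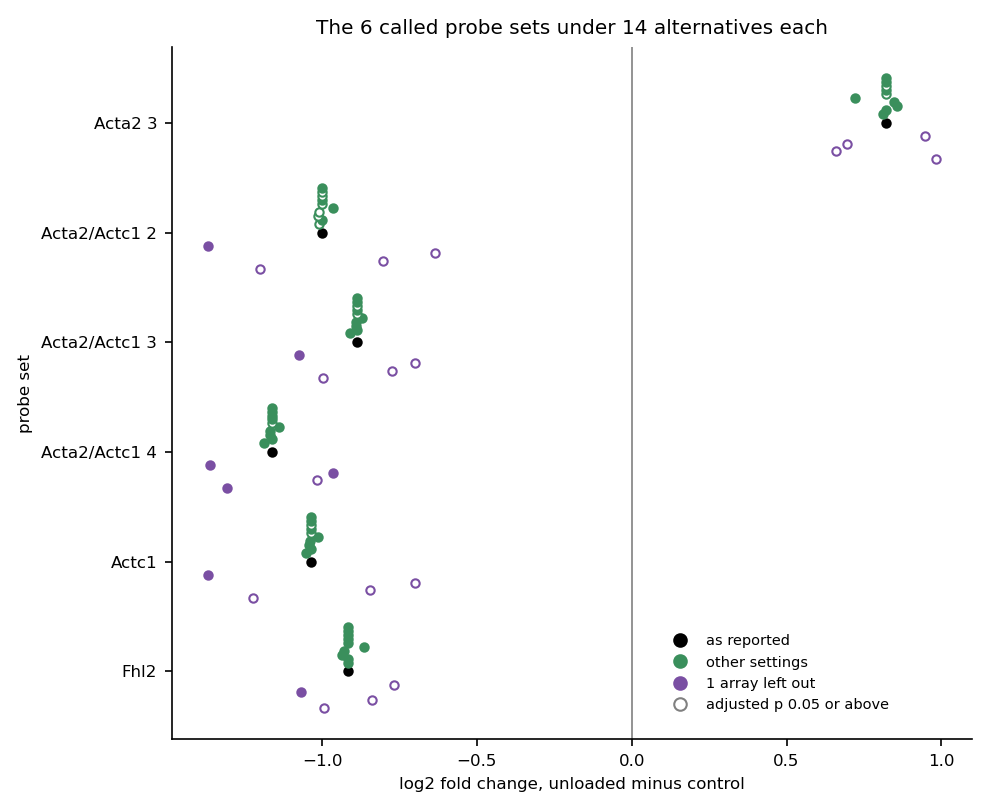
log2 fold change, unloaded minus control, of the 6 called member probe sets as reported (black), under 10 other settings (green, above) and with 1 array left out (purple, below), open where the adjusted p was 0.05 or above. All estimates keep their sign, and most calls end when an array is left out.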

How the data were processed

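RNA of soleus muscle was measured on 4 Affymetrix rat arrays, 2 unloaded and 2 control pools. The authors deposited 1 table of intensity values, made with MAS5 per the submitters' processing notes (its version was not given in the sources used). The 2%-trimmed mean was 150.2 or 150.3 on each array, and such scaling assumes like total signal in the groups. Of 8799 probe sets, 59 Affymetrix controls were left out. Symbols came from the platform annotation, updated by gene ID to RefSeq (GRCr8): 7006 probe sets had 1 symbol, 308 several and 1426 none.

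Signals were transformed as log2(signal + 9), 9 being their 25th percentile, which understates changes of dim transcripts. The 5257 probe sets with a mean of at least 21.0 (40th percentile) were tested with limma 3.58.1 in R 4.3.3 (lmFit, eBayes with a mean-variance trend; 2 residual and 5.80 prior degrees of freedom), adjusted by Benjamini-Hochberg at 0.05. The fitting steps were tested on data simulated from the fitted model itself, which cannot test how well that model describes these arrays. Members and lists were chosen with earlier results of these data known. Besides all members and the non-muscle actins, up to 4 genes a list with the smallest p, and the 3 nearest probe sets of Acta1 and of genes whose brightest probe set passed, are named; further list members are named where they bear on a marker check. One related gene list is not reported here. Figures used matplotlib 3.10.9.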

Additional observations from a re-analysis of the deposited data

How the results depend on the processing

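All 6 called member probe sets kept their direction in each of 14 alternatives. Without a filter on dim probe sets all 13 member probe sets were tested and 1 passed (0 higher, 1 lower). Without a mean-variance trend 2 of 12 passed (0 higher, 2 lower). Counted by the brightest probe set, 2 of 7 genes passed. There were 2 higher with a filter at the 60th percentile or with robust estimation, against 1. With 1 array left out, 0 to 4 passed, 0 higher and 0 to 4 lower. Over all tested probe sets 276 passed (136 higher, 140 lower), 90 without a filter (42 and 48), 113 without a trend (52 and 61), and 67 to 84 with 1 array left out, where a lone pool is assumed to vary like the others. Quantile normalization, median scaling and offsets of 1 or at the 10th or 50th percentile left 5 or 6 members called, and 9 not overlapping under both normalizations. The pool numbers are shared between groups, but the labels do not say that they pair pools, and deviations of same-numbered pools correlated at -0.04. With the pool number as a replicate block 6 members passed (1 higher, 5 lower), as without it, and 165 of all probe sets (78 and 87). The causes of these shifts were not tested. Of 13 called genes named outside the members, all kept their direction, 8 passed in no fit with 1 array left out and 5 in some. Signals near background, as for shared probe set 1 and Actg2, limit what can be read.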
